A study of Homo sapiens with 8 samples.

Results

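The 9 genes described here are UPK3B, BNC1, WT1, MSLN, PODXL, LRP2, PKHD1L1, TMEM255A and TMEM151A, out of 61209 gene names in the deposited count table. The first 4 are markers of mesothelium, and the other 5 encode membrane proteins that were picked for a high level in 1 of the 4 groups, the Mock Pdgfra-low libraries. They were thus chosen by their counts in those libraries, and the high level there is given as a description without a test. The cells were H1, an established human embryonic stem cell line, carrying an Msx1-P2A-tdTomato reporter, in which a red fluorescent protein is made together with the transcription factor Msx1. All groups share this reporter and the same path to mesoderm, with a last step of 3 days in BMP4 at 60 ng/mL and the GSK3 inhibitor CHIR99021 at 1 µM. On day 4 the cells were pelleted at 25000 cells per well, on day 5 the pellets were moved, and on day 8 Msx1-positive cells were collected as a Pdgfra-low or a Pdgfra-positive population. The groups were FGF8+10 Pdgfra-low and FGF8+10 Pdgfra-positive, from pellets given FGF8 and FGF10 at 500 ng/mL each, and Mock Pdgfra-low and Mock Pdgfra-positive, from pellets given Mock, for which the labels name no medium. Each group had 2 libraries, which the titles call biological replicates. The sources used here do not say if the cultures behind them were differentiated separately, and p-values refer to the spread between libraries only. Each population comes from 1 reporter line.

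Mesothelium is the flat epithelium that lines the body cavities and covers their organs, and it forms from the lateral plate mesoderm. Its cells keep keratins, carry glycoproteins on the surface that faces the cavity, and in the embryo express the transcription factors WT1 and BNC1. The membrane genes belong to other families. PODXL encodes podocalyxin, a heavily sialylated mucin best known from the foot processes of kidney podocytes, and LRP2 encodes megalin, a very large endocytic receptor of absorptive epithelia that works with cubilin. The question the design poses is how a pair of FGF ligands changed the sorted populations relative to Mock, and here it is asked for these genes.

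Promoters are shown side by side for 5 genes whose level was high in the Mock Pdgfra-low libraries. These genes did not share 1 order over the groups, since LRP2 was highest in the FGF8+10 Pdgfra-low libraries. The sequences are from RefSeq on GRCh38.p14, from 250 bases before to 50 bases after the start site, 5′ to 3′ on the strand of the gene. Capitals mark 2 motifs searched on both strands. GGGCGG is the core of the GC box. The letters GCGTGGG are a core bound by the EGR family and by WT1.
UPK3B, chr7:76510302-76510601, plus strand: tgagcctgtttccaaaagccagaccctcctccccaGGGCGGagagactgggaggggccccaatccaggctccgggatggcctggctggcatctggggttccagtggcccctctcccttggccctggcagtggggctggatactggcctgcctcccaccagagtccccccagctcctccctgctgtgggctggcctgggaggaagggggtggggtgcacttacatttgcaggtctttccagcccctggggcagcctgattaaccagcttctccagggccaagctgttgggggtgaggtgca
BNC1, chr15:83284615-83284914, minus strand: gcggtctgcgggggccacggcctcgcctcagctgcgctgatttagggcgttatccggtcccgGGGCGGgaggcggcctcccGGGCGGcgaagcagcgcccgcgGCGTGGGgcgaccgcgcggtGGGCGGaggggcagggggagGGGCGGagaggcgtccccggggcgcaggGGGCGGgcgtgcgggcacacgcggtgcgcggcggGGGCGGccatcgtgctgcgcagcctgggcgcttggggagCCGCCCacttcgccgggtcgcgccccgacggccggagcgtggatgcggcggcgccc
LRP2, chr2:169362485-169362784, minus strand: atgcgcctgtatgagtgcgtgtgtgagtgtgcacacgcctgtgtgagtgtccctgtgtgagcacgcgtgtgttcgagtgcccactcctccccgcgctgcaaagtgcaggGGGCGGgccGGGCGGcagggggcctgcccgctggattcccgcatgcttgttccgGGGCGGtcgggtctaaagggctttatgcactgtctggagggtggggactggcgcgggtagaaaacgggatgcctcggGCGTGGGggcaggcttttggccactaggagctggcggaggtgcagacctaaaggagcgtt
TMEM255A, chrX:120311412-120311711, minus strand: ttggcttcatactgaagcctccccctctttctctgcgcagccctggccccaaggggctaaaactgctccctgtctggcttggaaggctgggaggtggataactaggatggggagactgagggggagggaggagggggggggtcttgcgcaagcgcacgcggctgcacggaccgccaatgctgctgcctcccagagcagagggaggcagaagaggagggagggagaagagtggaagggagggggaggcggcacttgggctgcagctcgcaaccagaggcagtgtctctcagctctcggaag
TMEM151A, chr11:66291644-66291943, plus strand: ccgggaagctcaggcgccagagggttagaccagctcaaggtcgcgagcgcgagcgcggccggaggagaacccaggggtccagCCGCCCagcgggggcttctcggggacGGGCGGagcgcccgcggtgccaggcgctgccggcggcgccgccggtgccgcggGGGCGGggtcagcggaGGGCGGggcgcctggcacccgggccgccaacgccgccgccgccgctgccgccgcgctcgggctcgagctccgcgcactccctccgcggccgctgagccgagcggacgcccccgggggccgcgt
The windows differed in base composition. BNC1 and TMEM151A held 81.7% and 82.0% G or C, with 50 and 52 CpG sites. Their CpG content was 1.04 and 1.03 times that expected from base composition. UPK3B held 65.7% G or C but only 2 CpG sites, an observed over expected ratio of 0.06, and TMEM255A had a ratio of 0.35 and LRP2 of 0.76, against medians of 58.7% G or C and a ratio of 0.58 over 34943 RefSeq windows of the same length. GGGCGG occurred 7 times in the BNC1 window shown, 4 times in TMEM151A, 3 times in LRP2, once in UPK3B and not in TMEM255A, while 44.9% of all windows hold it. GCGTGGG occurred once each in BNC1 and LRP2, and 7.0% of all windows hold it. BNC1 has a second RefSeq start, whose window (chr15:83283408-83283707) held 74.3% G or C, 37 CpG sites, GGGCGG 2 times and no GCGTGGG. The TATA box core TATAAA was in none of these 5 windows, and 11.6% of all windows hold it. The core of GATA factors, AGATAA, was also in none of them, and 10.4% of all windows hold it. All 5 windows were above the median in G or C, from 64.0% in TMEM255A and 65.3% in LRP2 to 82.0% in TMEM151A. Their CpG ratios lay on both sides of the median, from 0.06 to 1.04. A match of letters is not a measure of binding.

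Depth ranged from 47698561 to 64390444 counts per library. Values are given as CPM, counts relative to a library size adjusted by the TMM method, and as TPM, which also divides by gene length, where genes are compared with each other. Mates were counted singly, so 2 counts are about 1 read pair, and a count of 0 in a group allows up to 6 counts. In 1 library 6 counts correspond to 0.0883 to 0.134 CPM. The sort was visible in PDGFRA, which had 279 and 292 CPM in FGF8+10 Pdgfra-low, 712 and 716 CPM in FGF8+10 Pdgfra-positive, 194 and 189 CPM in Mock Pdgfra-low and 453 and 455 CPM in Mock Pdgfra-positive libraries. MSX1 was between 48.6 and 52.8 CPM in the 4 FGF8+10 libraries and between 21.3 and 26.2 CPM in the 4 Mock libraries. In pools of sorted cells, fewer cells of a type and less RNA per cell cannot be told apart. All 9 genes passed the filter on low counts, WT1 only through the FGF8+10 Pdgfra-low libraries. MSLN would not have passed without the Mock Pdgfra-low libraries, by which the genes were chosen. A gene that passes through 1 group where it is high had to differ, so no weight is put on the number that passed.

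**Figure D1:**
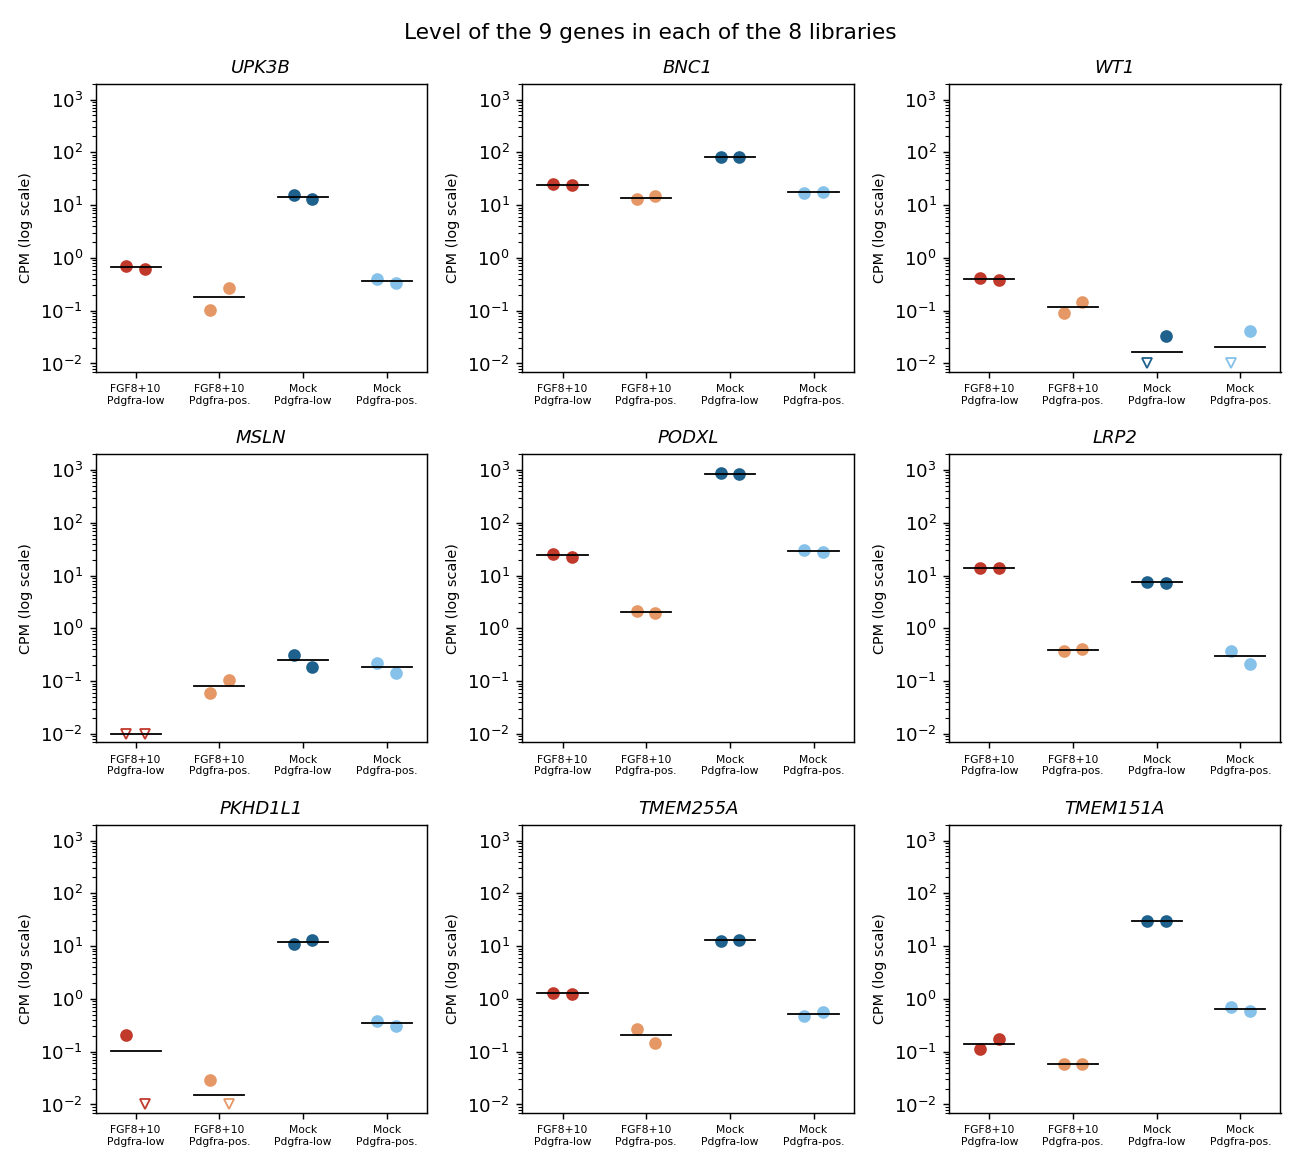
Level of each of the 9 genes, in TMM-scaled CPM on a log axis, in the 2 libraries (points) of each group, with the group mean as a line. Open triangles at the bottom stand for libraries with a count of 0. The Mock Pdgfra-low libraries are highest for UPK3B, BNC1, PODXL, PKHD1L1, TMEM255A and TMEM151A, the FGF8+10 Pdgfra-low libraries are highest for LRP2 and WT1, and for MSLN the libraries of the Mock groups overlap.

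The 4 markers of mesothelium did not give a single answer on the word mesothelial as a description of the Mock Pdgfra-low cells, since WT1 and MSLN were close to absent there while BNC1 and UPK3B were present. WT1, a zinc finger transcription factor of mesothelium, epicardium, gonad and podocytes (chromosome 11, 32387775 to 32435564, minus strand), had 0.415 and 0.375 CPM in FGF8+10 Pdgfra-low, 0.0888 and 0.147 CPM in FGF8+10 Pdgfra-positive, 0 and 0.0331 CPM in Mock Pdgfra-low and 0 and 0.0415 CPM in Mock Pdgfra-positive libraries. The Mock libraries together held 2 counts per group, and the FGF8+10 Pdgfra-low libraries held 22 counts each, so WT1 was close to 0 in the group in which the membrane genes were picked as high. The ratio of FGF8+10 to Mock in Pdgfra-low cells was 23.9, on 44 counts against 2, and is given as a description. Counting was without strand, and WT1 shares 47 exon bases with its antisense gene WT1-AS, which had 12 counts over all libraries. MSLN encodes mesothelin, a surface glycoprotein that binds the mucin MUC16 (chromosome 16, 760734 to 768865, plus strand). It had 0 counts in both FGF8+10 Pdgfra-low libraries, 0.0592 and 0.103 CPM in FGF8+10 Pdgfra-positive, 0.312 and 0.182 CPM in Mock Pdgfra-low and 0.224 and 0.145 CPM in Mock Pdgfra-positive libraries. MSLN thus had 30 counts in Mock Pdgfra-low against none in FGF8+10 Pdgfra-low, which is given as a description. The libraries of the Mock populations overlapped.

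BNC1 encodes basonuclin 1, a zinc finger protein of basal keratinocytes, germ cells and mesothelium (chromosome 15, 83255884 to 83284664, minus strand). It had 25.0 and 23.7 CPM in FGF8+10 Pdgfra-low, 12.8 and 14.8 CPM in FGF8+10 Pdgfra-positive, 83.0 and 80.7 CPM in Mock Pdgfra-low and 17.3 and 17.6 CPM in Mock Pdgfra-positive libraries. No groups overlapped, and BNC1 was above 10 CPM in every library, which held for no other of the 9 genes. UPK3B encodes uroplakin 3B, a single-pass membrane protein of the uroplakin family of the bladder lining, used as a marker of mesothelium (chromosome 7, 76510525 to 76516522, plus strand). It had 0.717 and 0.614 CPM in FGF8+10 Pdgfra-low, 0.104 and 0.265 CPM in FGF8+10 Pdgfra-positive, 15.2 and 12.8 CPM in Mock Pdgfra-low and 0.403 and 0.332 CPM in Mock Pdgfra-positive libraries. The Mock Pdgfra-low libraries stood far above the other 6, which were all under 1 CPM. UPK3B has the relatives UPK3BL1 and UPK3BL2, and reads that map to several places were dropped. Whether this lowered the level of UPK3B was not tested. UPK3BL2 had no count and UPK3BL1 averaged at most 0.0165 CPM in any group.

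PODXL was the most abundant of the 9 (chromosome 7, 131500262 to 131558217, minus strand). It had 25.6 and 22.7 CPM in FGF8+10 Pdgfra-low, 2.1 and 1.94 CPM in FGF8+10 Pdgfra-positive, 862 and 838 CPM in Mock Pdgfra-low and 30.5 and 27.5 CPM in Mock Pdgfra-positive libraries. No groups overlapped, and the FGF8+10 Pdgfra-low libraries lay just below the Mock Pdgfra-positive ones. Within Pdgfra-low cells PODXL was 35.3-fold lower with FGF8+10, and within Mock it was 29.4-fold higher in Pdgfra-low cells. LRP2 (chromosome 2, 169127109 to 169362534, minus strand) had another order. It had 14.1 and 13.7 CPM in FGF8+10 Pdgfra-low, 0.370 and 0.412 CPM in FGF8+10 Pdgfra-positive, 7.47 and 7.36 CPM in Mock Pdgfra-low and 0.381 and 0.208 CPM in Mock Pdgfra-positive libraries. LRP2 was high in the Pdgfra-low cells of both treatments, 1.87-fold higher with FGF8+10 than with Mock, and the Pdgfra-positive libraries of the treatments overlapped.

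The remaining membrane genes were low outside the Mock Pdgfra-low libraries, with at most 1.32 CPM in any other library. TMEM151A, which encodes a transmembrane protein whose mutations cause a human movement disorder (chromosome 11, 66291894 to 66296664, plus strand), had 0.113 and 0.171 CPM in FGF8+10 Pdgfra-low, 0.0592 and 0.0589 CPM in FGF8+10 Pdgfra-positive, 30.4 and 30.0 CPM in Mock Pdgfra-low and 0.694 and 0.581 CPM in Mock Pdgfra-positive libraries. The fitted ratio in Pdgfra-low cells was 208-fold lower with FGF8+10, on 16 counts against 3661. PKHD1L1, on chromosome 8, encodes a very large protein with an extracellular part that in the mouse coats the stereocilia of hair cells. It had 0.207 and 0 CPM in FGF8+10 Pdgfra-low, 0.0296 and 0 CPM in FGF8+10 Pdgfra-positive, 11.2 and 13.2 CPM in Mock Pdgfra-low and 0.381 and 0.311 CPM in Mock Pdgfra-positive libraries. The FGF8+10 groups overlapped at or near 0, and all 11 counts of FGF8+10 Pdgfra-low were in replicate 1. Against 1482 counts in Mock Pdgfra-low they made PKHD1L1 124-fold lower with FGF8+10, a ratio given as a description. The fitted log2 fold change was -6.92, and it was -12.48 without FGF8+10 Pdgfra-low replicate 1 and -5.86 without replicate 2 of that group. TMEM255A, which encodes a multi-pass membrane protein (chromosome X, 120258650 to 120311556, minus strand), had 1.32 and 1.23 CPM in FGF8+10 Pdgfra-low, 0.267 and 0.147 CPM in FGF8+10 Pdgfra-positive, 12.6 and 13 CPM in Mock Pdgfra-low and 0.470 and 0.560 CPM in Mock Pdgfra-positive libraries. Its groups did not overlap, and it was 10.0-fold lower with FGF8+10 in Pdgfra-low cells.

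Per gene length, PODXL stood far above the rest in Mock Pdgfra-low cells, at 605 ± 13.2 TPM (SD, n = 2). BNC1 followed at 81.9 ± 1.75 TPM, TMEM151A at 58.3 ± 0.652 TPM, UPK3B at 26.8 ± 3.26 TPM and TMEM255A at 16.2 ± 0.332 TPM. PKHD1L1 and LRP2, the genes with the most exon bases (20621 and 16109), were at 2.91 ± 0.342 and 2.26 ± 0.0285 TPM, MSLN was at 0.468 ± 0.175 TPM and WT1 at 0.00997 ± 0.0141 TPM. In FGF8+10 Pdgfra-low cells the order was led by BNC1 at 26.7 ± 1.13 TPM, followed by PODXL at 18.8 ± 1.65 TPM and LRP2 at 4.63 ± 0.107 TPM. No other of the 9 passed 2 TPM there. The most abundant gene in the Pdgfra-positive groups was BNC1 with FGF8+10, at 15.3 ± 1.48 TPM, and PODXL with Mock, at 20.7 ± 1.52 TPM.

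**Figure D2:**
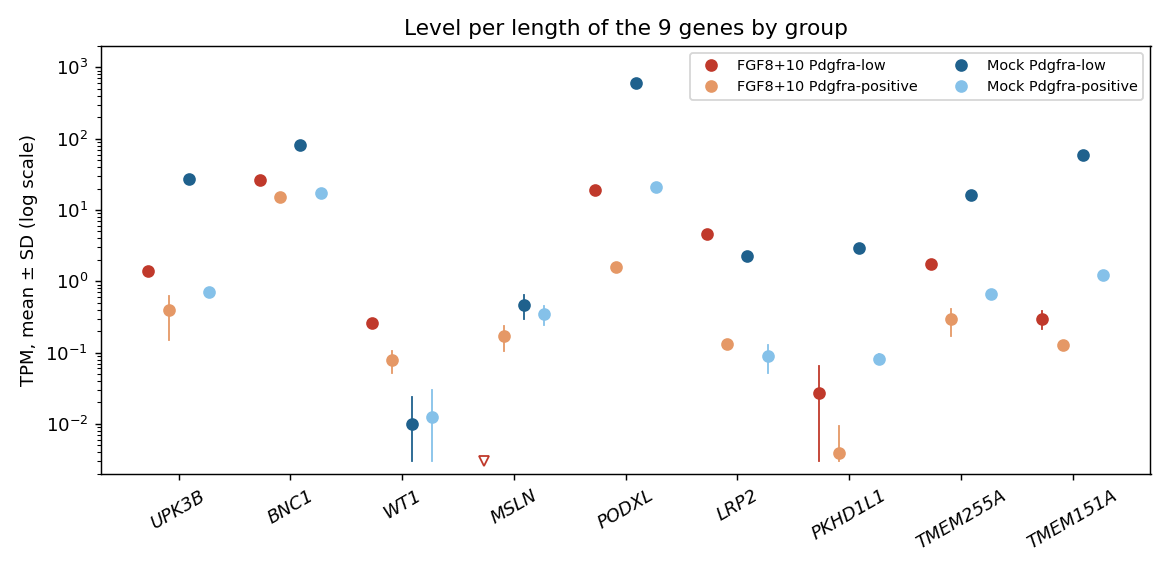
Level per gene length of the 9 genes in TPM on a log axis, mean ± SD of the 2 libraries of each group; bars that reach below the axis are cut off there, and the open triangle marks MSLN at 0 in FGF8+10 Pdgfra-low. PODXL reaches 605 TPM in Mock Pdgfra-low and 1.60 TPM in FGF8+10 Pdgfra-positive cells.

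FGF8+10 was set against Mock in Pdgfra-positive cells, a comparison whose group means leave out the Mock Pdgfra-low libraries. Those libraries still entered the filter, the scaling and the estimate of spread, since the fit was over all 8 libraries. The choice of genes names the level in those libraries and does not say whether the Mock Pdgfra-positive level also entered it. Of the 9 genes, 6 fell and none rose (adjusted p under 0.05, edgeR's quasi-likelihood test with Benjamini-Hochberg adjustment over 22554 genes), where 25.1% of all tested genes fell, 25.8% rose and 50.9% moved in either direction. With only the 4 Pdgfra-positive libraries in the fit, UPK3B (edgeR adjusted p = 0.212) and TMEM255A (0.0579) lost their calls. The median log2 fold change was -1.16 over the 9 genes and -0.01 over all tested genes. The value of -1.16 is that of MSLN, which was not called (edgeR adjusted p = 0.342). PODXL fell by 3.84 ± 0.0734 on the log2 scale (SE, edgeR adjusted p = 1.25e-34), 14.3-fold. TMEM151A fell by 3.38 ± 0.423 (edgeR adjusted p = 2.90e-09) and PKHD1L1 fell by 4.36 ± 0.838 (edgeR adjusted p = 3.63e-05). For PKHD1L1 this rests on 2 counts with FGF8+10 against 32 with Mock, which gives a ratio of 23.3 with an exact 95% counting interval from 3.63 to 979.

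Smaller falls were seen for TMEM255A, BNC1 and UPK3B. TMEM255A fell by 1.31 ± 0.363 (edgeR adjusted p = 0.00208), and without FGF8+10 Pdgfra-positive replicate 2 the log2 fold change was -0.93 with an edgeR adjusted p of 0.0667. With only the 4 Pdgfra-positive libraries in the fit its edgeR adjusted p was 0.0579. BNC1 fell by 0.34 ± 0.0714 (edgeR adjusted p = 8.92e-05), and scaled by library totals alone the log2 fold change was -0.16 with an edgeR adjusted p of 0.0520. UPK3B was at the threshold, with a log2 fold change of -0.98 ± 0.417 (edgeR adjusted p = 0.0461) that lost its call under 4 of 6 other settings and without each library in turn except FGF8+10 Pdgfra-positive replicate 2. Its log2 fold change was -0.45 without FGF8+10 Pdgfra-positive replicate 1 and -1.78 without replicate 2 of that group. LRP2 differed by 0.42 ± 0.355 (edgeR adjusted p = 0.341), MSLN by -1.16 ± 0.974 (edgeR adjusted p = 0.342) and WT1 by 2.35 ± 1.29 (edgeR adjusted p = 0.129), and none of these passed the test.

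**Figure D3:**
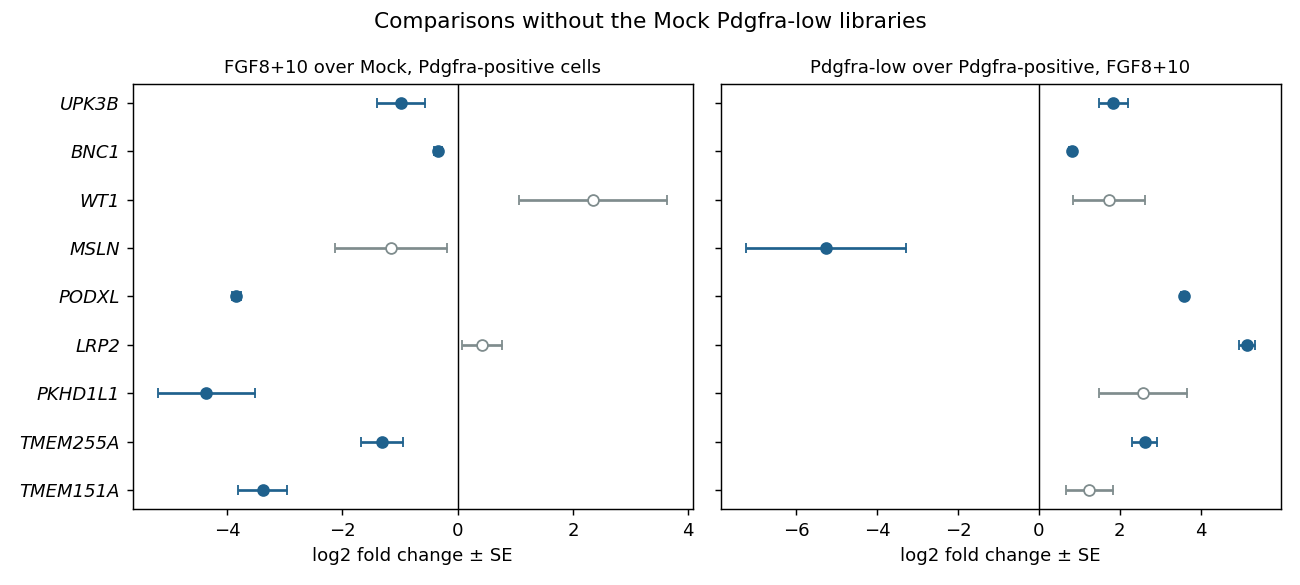
Log2 fold change ± SE of the 9 genes, from an edgeR fit over all 8 libraries, in the comparisons whose group means leave out the Mock Pdgfra-low libraries. They are FGF8+10 over Mock in Pdgfra-positive cells (left) and Pdgfra-low over Pdgfra-positive with FGF8+10 (right). Filled blue points have an adjusted p under 0.05 and open grey points do not. PODXL is at -3.84 on the left and 3.57 on the right, and LRP2 is at 0.42 and 5.14.

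The other comparison whose group means leave out the Mock Pdgfra-low libraries sets Pdgfra-low against Pdgfra-positive cells within FGF8+10. Of the 9 genes, 5 were higher in Pdgfra-low cells and 1 was lower, where 21.7% of all tested genes were higher, 19.6% lower and 41.4% called in either direction. The median log2 fold change was 1.83 over the 9 genes and -0.01 over all tested genes. LRP2 was higher by 5.14 ± 0.197 on the log2 scale (SE, edgeR adjusted p = 7.81e-26), 35.3-fold, and PODXL by 3.57 ± 0.0743 (edgeR adjusted p = 1.44e-32), 11.9-fold. TMEM255A was higher by 2.61 ± 0.298 (edgeR adjusted p = 4.34e-10), UPK3B by 1.83 ± 0.355 (edgeR adjusted p = 2.92e-05) and BNC1 by 0.82 ± 0.0677 (edgeR adjusted p = 4.20e-14). These 5 calls held in each alternative setting and without each library in turn.

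MSLN was the gene called lower, on 0 counts in FGF8+10 Pdgfra-low against 11 in FGF8+10 Pdgfra-positive libraries (edgeR adjusted p = 0.0281). MSLN entered the test only because of its level in the Mock Pdgfra-low libraries, so no weight is put on this call. The exact 95% counting interval of the ratio of Pdgfra-low to Pdgfra-positive reached up to 1.03 and so included no change. Its call was lost without FGF8+10 Pdgfra-low replicate 1 (edgeR adjusted p = 0.121) or replicate 2 (0.135), without FGF8+10 Pdgfra-positive replicate 2 (0.118) and without Mock Pdgfra-low replicate 1 (0.0533). WT1 had a log2 fold change of 1.72 ± 0.888 (edgeR adjusted p = 0.123). TMEM151A had 1.25 ± 0.584 (edgeR adjusted p = 0.0852). PKHD1L1 had 2.58 ± 1.09 (edgeR adjusted p = 0.0572) on 11 counts in FGF8+10 Pdgfra-low, all in replicate 1, against 2. Without that replicate its log2 fold change was -2.98 (edgeR adjusted p = 0.422). It was called without FGF8+10 Pdgfra-low replicate 2 (3.63, edgeR adjusted p = 0.00100) and without FGF8+10 Pdgfra-positive replicate 1 (5.51, edgeR adjusted p = 0.0369).

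The comparisons that set the Mock Pdgfra-low libraries against another group are given as values, since those libraries chose the genes. UPK3B, BNC1, MSLN, PODXL, PKHD1L1, TMEM255A and TMEM151A were lower in both FGF8+10 Pdgfra-low libraries than in either Mock Pdgfra-low library, and LRP2 and WT1 were higher. In that comparison 27.7% of all tested genes were called lower, 27.9% higher and 55.7% in either direction. A call is another measure than the order of libraries, and nothing is read from the count. On the log2 scale the fitted differences were -4.40 for UPK3B, -1.75 for BNC1, -5.14 for PODXL, 0.91 for LRP2, -6.92 for PKHD1L1, -3.32 for TMEM255A and -7.70 for TMEM151A. Pdgfra-low against Pdgfra-positive cells within Mock gave 5.25 for UPK3B, 2.23 for BNC1, 4.88 for PODXL, 4.66 for LRP2, 5.14 for PKHD1L1, 4.62 for TMEM255A and 5.56 for TMEM151A. WT1 and MSLN, both near the floor, had -0.34 and 0.42 there. Between the Mock populations 13.4% of all tested genes were called higher, 12.4% lower and 25.8% in either direction. Side by side, LRP2 was higher in Pdgfra-low cells by 5.14 on the log2 scale within FGF8+10 and by 4.66 within Mock, while TMEM151A differed by 1.25 within FGF8+10 and by 5.56 within Mock. Whether the FGF8+10 effect differed between the populations was not tested for the 9 genes, because that uses the libraries that chose them; over all tested genes 26.0% were called in that test.

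Partners of the encoded proteins were measured alongside. Podocalyxin is tied to actin through ezrin, encoded by EZR, and through the scaffold NHERF1, listed here as SLC9A3R1. EZR averaged 205 ± 4.18 CPM in FGF8+10 Pdgfra-low, 74.4 ± 0.825 CPM in FGF8+10 Pdgfra-positive, 424 ± 4.23 CPM in Mock Pdgfra-low and 104 ± 1.63 CPM in Mock Pdgfra-positive libraries (SD, n = 2 each). It was thus higher in Pdgfra-low cells, by 1.46 ± 0.0293 within FGF8+10 (SE, edgeR adjusted p = 1.49e-36) and by 2.03 ± 0.0290 within Mock (edgeR adjusted p = 7.35e-42). SLC9A3R1 was also higher in Pdgfra-low cells, by 1.62 ± 0.0308 within FGF8+10 (edgeR adjusted p = 2.58e-37) and by 1.90 ± 0.0331 within Mock (edgeR adjusted p = 2.24e-38). FGF8+10 against Mock moved these partners in opposite directions. In Pdgfra-low cells EZR fell by 1.05 ± 0.0272 (edgeR adjusted p = 3.86e-33) and SLC9A3R1 rose by 0.33 ± 0.0294 (edgeR adjusted p = 1.54e-13).

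The partner of megalin did not have the order of LRP2. CUBN, which encodes cubilin, averaged 5.17 ± 0.860 CPM in FGF8+10 Pdgfra-low, 7.45 ± 0.553 CPM in FGF8+10 Pdgfra-positive, 0.940 ± 0.354 CPM in Mock Pdgfra-low and 2.25 ± 1.02 CPM in Mock Pdgfra-positive libraries (SD, n = 2 each). It rose with FGF8+10 in both populations, by 2.46 ± 0.240 in Pdgfra-low (SE, edgeR adjusted p = 2.76e-11) and by 1.72 ± 0.215 in Pdgfra-positive cells (edgeR adjusted p = 1.19e-08). In Pdgfra-low against Pdgfra-positive cells CUBN had a log2 fold change of -1.26 within Mock (edgeR adjusted p = 0.000260), and without Mock Pdgfra-positive replicate 2 this was -0.69 (edgeR adjusted p = 0.0963). Of 12 tested partners of the 13 listed, 3 rose and 6 fell with FGF8+10 in Pdgfra-low cells, where 27.9% of all tested genes rose and 27.7% fell, with a median log2 fold change of -0.29 against -0.02 over all tested genes. In Pdgfra-positive cells 3 rose and 6 fell as well, where 25.8% of all tested genes rose and 25.1% fell. Scaled by library totals alone, 5 rose in each population. MUC16, the partner of mesothelin, had no count in 3 groups and averaged 0.0224 CPM in Mock Pdgfra-positive libraries.

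The relatives named here had another order over the groups than the genes they resemble. BNC2, the paralog of BNC1, averaged 50.0 ± 0.609 CPM in FGF8+10 Pdgfra-low, 58.9 ± 0.780 CPM in FGF8+10 Pdgfra-positive, 117 ± 0.452 CPM in Mock Pdgfra-low and 75.3 ± 2.67 CPM in Mock Pdgfra-positive libraries (SD, n = 2 each). In Pdgfra-low against Pdgfra-positive cells its log2 fold change was -0.24 ± 0.0419 within FGF8+10 (SE, edgeR adjusted p = 6.87e-06) and 0.64 ± 0.040 within Mock (edgeR adjusted p = 1.12e-17). CD34, the relative of PODXL that marks endothelial and blood progenitors, averaged 14.7 ± 1.37 CPM in FGF8+10 Pdgfra-low, 2.05 ± 0.290 CPM in FGF8+10 Pdgfra-positive, 0.957 ± 0.378 CPM in Mock Pdgfra-low and 1.48 ± 0.156 CPM in Mock Pdgfra-positive libraries. CD34 thus rose in Pdgfra-low cells with FGF8+10, by 3.94 ± 0.197 on the log2 scale (edgeR adjusted p = 3.55e-22), where PODXL was lower. TMEM255B, the paralog of TMEM255A, averaged 2.95 ± 0.0176 CPM in FGF8+10 Pdgfra-low and at most 0.889 CPM in the other groups.

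Among the receptors related to LRP2, VLDLR and LRP4 fell with FGF8+10 in both populations. VLDLR, a receptor for lipoproteins and reelin, averaged 5.46 ± 0.409 CPM in FGF8+10 Pdgfra-low, 3.35 ± 0.348 CPM in FGF8+10 Pdgfra-positive, 236 ± 3.89 CPM in Mock Pdgfra-low and 220 ± 9.30 CPM in Mock Pdgfra-positive libraries (SD, n = 2 each). It fell by 5.43 ± 0.0517 in Pdgfra-low (SE, edgeR adjusted p = 1.91e-50) and fell by 6.03 ± 0.0544 in Pdgfra-positive cells (edgeR adjusted p = 3.27e-51). LRP4, an antagonist of WNT signalling and the agrin receptor of muscle, fell by 2.94 ± 0.0292 in Pdgfra-low (edgeR adjusted p = 9.52e-50) and fell by 3.10 ± 0.0285 in Pdgfra-positive cells (edgeR adjusted p = 7.00e-51). LRP8 rose, by 3.23 ± 0.143 in Pdgfra-low (edgeR adjusted p = 4.34e-24) and by 0.78 ± 0.146 in Pdgfra-positive cells (edgeR adjusted p = 1.19e-05). Of 15 tested relatives of the 23 listed, 7 rose and 7 fell with FGF8+10 in Pdgfra-low cells, where 27.9% of all tested genes rose and 27.7% fell. In Pdgfra-positive cells 4 rose and 6 fell, where 25.8% of all tested genes rose and 25.1% fell. Scaled by library totals alone, 7 rose in Pdgfra-positive cells. UPK3A, a uroplakin of the bladder, had no count in any library.

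A list of 20 other markers of mesothelium and epicardium was read beside the 9 genes, of which 15 were tested. The list was mixed. ITLN1, which encodes a secreted lectin, was at 0 in every library, and KRT5, KRT7 and UPK1B averaged at most 0.0950, 0.107 and 0.169 CPM in any group. CALB2, which encodes calretinin, averaged 0.382 ± 0.154 CPM in FGF8+10 Pdgfra-low, 0.0663 ± 0.0519 CPM in FGF8+10 Pdgfra-positive, 1.25 ± 0.193 CPM in Mock Pdgfra-low and 0.126 ± 0.115 CPM in Mock Pdgfra-positive libraries (SD, n = 2 each). LRRN4, which encodes a membrane protein with leucine-rich repeats, averaged 167 ± 1.49 CPM in FGF8+10 Pdgfra-low, 144 ± 0.387 CPM in FGF8+10 Pdgfra-positive, 122 ± 4.24 CPM in Mock Pdgfra-low and 83.1 ± 2.64 CPM in Mock Pdgfra-positive libraries. KRT19, a keratin gene of many simple epithelia, averaged 328 ± 6.70 CPM in FGF8+10 Pdgfra-low, 227 ± 2.39 CPM in FGF8+10 Pdgfra-positive, 528 ± 2.65 CPM in Mock Pdgfra-low and 403 ± 1.60 CPM in Mock Pdgfra-positive libraries. CALB2, LRRN4 and KRT19 are named after their values were seen. The keratin gene KRT8 averaged 737 ± 11 CPM in FGF8+10 Pdgfra-low, 172 ± 1.37 CPM in FGF8+10 Pdgfra-positive, 485 ± 1.99 CPM in Mock Pdgfra-low and 189 ± 0.583 CPM in Mock Pdgfra-positive libraries. PDPN, which encodes podoplanin, a mucin-like glycoprotein of mesothelium, podocytes and lymphatic vessels, averaged 32.0 ± 2.54 CPM in FGF8+10 Pdgfra-low, 24.3 ± 1.66 CPM in FGF8+10 Pdgfra-positive, 447 ± 5.41 CPM in Mock Pdgfra-low and 281 ± 1.11 CPM in Mock Pdgfra-positive libraries.

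Of these 15 markers, 8 were higher and 4 lower in Pdgfra-low than in Pdgfra-positive cells within FGF8+10, with a median log2 fold change of 0.40, and 8 were higher and 2 lower within Mock, with a median of 0.56. Over all tested genes 21.7% were higher and 19.6% lower within FGF8+10, with a median of -0.01, and 13.4% were higher and 12.4% lower within Mock, with a median of -0.02. TCF21, 1 of the 2 lower within Mock, lost its call without Mock Pdgfra-low replicate 1 (edgeR adjusted p = 0.0617) and without Mock Pdgfra-positive replicate 1 (0.0692). KRT8 was higher by 2.1 ± 0.0237 within FGF8+10 (SE, edgeR adjusted p = 1.12e-45) and by 1.36 ± 0.0238 within Mock (edgeR adjusted p = 2.24e-38). KRT18, its filament partner, was higher by 1.65 ± 0.0329 within FGF8+10 (edgeR adjusted p = 1.44e-36) and by 0.69 ± 0.0344 within Mock (edgeR adjusted p = 3.26e-21). TBX18, a transcription factor of epicardium, was higher by 1.05 ± 0.125 within FGF8+10 (edgeR adjusted p = 1.25e-09) and by 1.35 ± 0.160 within Mock (edgeR adjusted p = 2.72e-09). ALDH1A2, which makes retinoic acid in mesothelium and many other mesodermal tissues, went the other way. Its log2 fold change was -0.79 ± 0.0609 within FGF8+10 (edgeR adjusted p = 3.82e-15) and -4.14 ± 0.159 within Mock (edgeR adjusted p = 2.38e-25), and Mock Pdgfra-low libraries had only 0.345 and 0.529 CPM.

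With FGF8+10 against Mock, 6 of the 15 markers rose and 6 fell in Pdgfra-low cells, where 27.9% of all tested genes rose and 27.7% fell, and 4 rose and 6 fell in Pdgfra-positive cells, where the shares were 25.8% and 25.1%. PDPN fell by 3.80 ± 0.0378 in Pdgfra-low (SE, edgeR adjusted p = 1.17e-48) and fell by 3.53 ± 0.0385 in Pdgfra-positive cells (edgeR adjusted p = 5.11e-47). ALDH1A2 rose by 6.70 ± 0.120 in Pdgfra-low (edgeR adjusted p = 1.76e-39) and by 3.35 ± 0.0758 in Pdgfra-positive cells (edgeR adjusted p = 2.34e-35).

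**Figure D4:**
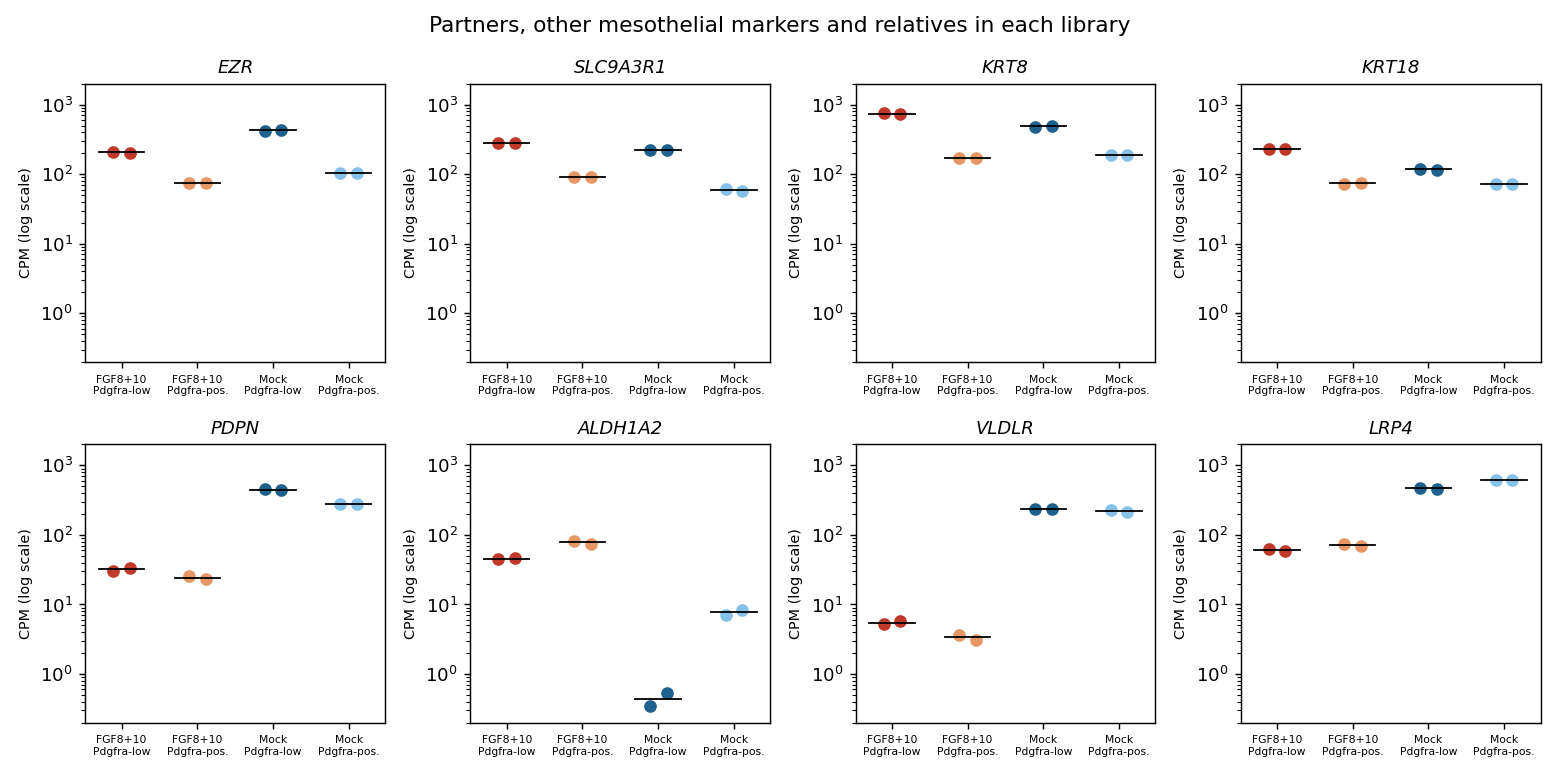
Level of 8 partners, other markers and relatives, in TMM-scaled CPM on a log axis, in the 2 libraries (points) of each group, with the group mean as a line. EZR, SLC9A3R1, KRT8 and KRT18 are higher in the Pdgfra-low than in the Pdgfra-positive libraries of the same treatment, and PDPN, VLDLR and LRP4 are lower in the FGF8+10 than in the Mock libraries.

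Markers of other cell types also moved between the groups. The summed level of 13 endothelial markers was 2713 to 2719 CPM in FGF8+10 Pdgfra-low, 2208 to 2223 CPM in FGF8+10 Pdgfra-positive, 1413 to 1422 CPM in Mock Pdgfra-low and 1388 to 1399 CPM in Mock Pdgfra-positive libraries, most of it KDR, which is also expressed by early mesoderm. Of the 13, 12 were higher and none lower in Pdgfra-low cells within FGF8+10, as LRP2 and PODXL were, where 21.7% of all tested genes were higher and 19.6% lower. Within Mock 1 was higher and 4 lower, where 13.4% of all tested genes were higher and 12.4% lower. Leaving out any 1 of the 4 Mock libraries gave 2 or 3 higher within Mock. CDH5, which defines endothelium, averaged 19.8 ± 0.581 CPM in FGF8+10 Pdgfra-low, 1.39 ± 0.474 CPM in FGF8+10 Pdgfra-positive, 1.40 ± 0.366 CPM in Mock Pdgfra-low and 0.956 ± 0.296 CPM in Mock Pdgfra-positive libraries (SD, n = 2 each). Their part in the higher LRP2 and PODXL within FGF8+10 was not tested.

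The 5 neural markers summed to 8.10 to 8.15 CPM in FGF8+10 Pdgfra-low, 2.35 to 3.16 CPM in FGF8+10 Pdgfra-positive, 130 CPM in both Mock Pdgfra-low and 10.4 to 11.5 CPM in Mock Pdgfra-positive libraries. Almost all of this was STMN2, a tubulin-binding protein of growing axons, at 129 ± 0.149 CPM in Mock Pdgfra-low, while TUBB3 averaged 0.502 CPM there. Cardiac muscle markers, 6 in all, summed to 4.13 to 4.30 CPM in FGF8+10 Pdgfra-low, 3.98 to 4.67 CPM in FGF8+10 Pdgfra-positive, 53.3 to 54.1 CPM in Mock Pdgfra-low and 62.3 to 69.6 CPM in Mock Pdgfra-positive libraries, most of it TNNT2. The members of that list differed in direction between the Mock populations. Of the 4 tested, 2 were higher and 1 was lower in Pdgfra-low than in Pdgfra-positive cells within Mock. Over all tested genes 13.4% were higher and 12.4% lower there. The count of higher cardiac markers was 1 to 2 without each library in turn. TNNT2 had a log2 fold change of -0.40 ± 0.0653 (SE, edgeR adjusted p = 4.07e-06), while MYL7 had 2.51 ± 0.495 (edgeR adjusted p = 8.15e-05) and ACTN2 had 0.71 ± 0.256 (edgeR adjusted p = 0.0346).

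Of the markers of podocytes and kidney, whose cells carry PODXL, WT1 and LRP2, NPHS1, which encodes nephrin, averaged at most 0.504 CPM in any group. SYNPO, which encodes an actin-binding protein of podocytes and neurons, averaged 15.4 ± 0.373 CPM in FGF8+10 Pdgfra-low, 10.8 ± 1.03 CPM in FGF8+10 Pdgfra-positive, 39.4 ± 1.64 CPM in Mock Pdgfra-low and 34.7 ± 0.465 CPM in Mock Pdgfra-positive libraries (SD, n = 2 each). The 9 genes of coelomic epithelium and gonadal ridge summed to between 334 and 478 CPM in all libraries. Pluripotency markers, which matter because stem cells carry PODXL, summed to 285 to 286 CPM in FGF8+10 Pdgfra-low, 219 to 224 CPM in FGF8+10 Pdgfra-positive, 107 to 109 CPM in Mock Pdgfra-low and 134 to 136 CPM in Mock Pdgfra-positive libraries, most of it LIN28A, DPPA4 and TDGF1. SOX2, which with NANOG and POU5F1 defines pluripotent cells, averaged 0.0341 ± 0.0482 CPM in FGF8+10 Pdgfra-low, 0.0295 ± 0.000124 CPM in FGF8+10 Pdgfra-positive, 1.32 ± 0.146 CPM in Mock Pdgfra-low and 0.842 ± 0.335 CPM in Mock Pdgfra-positive libraries. NANOG and POU5F1 averaged at most 0.0412 and 0.0606 CPM in any group. Surface ectoderm and other epithelial markers summed to between 3.85 and 6.49 CPM and blood markers to between 0.355 and 2.28 CPM in all libraries. EPCAM averaged at most 0.963 CPM and CDH1 at most 1.20 CPM in any group. The part of these cell types in the levels of the 9 genes was not tested.

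Genes with a like pattern were found as those with the smallest root mean square difference in log2(CPM + 0.5), centred over the 8 libraries, among 14179 genes with a mean of at least 1 CPM. For UPK3B the nearest was TMEM255A, at 0.32, then APLP1 at 0.39 and PKHD1L1 at 0.40. PKHD1L1 and TMEM151A both had CA12 as their nearest, at 0.26 and 0.44. CA12 encodes a membrane carbonic anhydrase and averaged 40.3 CPM in Mock Pdgfra-low and at most 2.58 CPM in the other groups. For BNC1 the nearest were PLEKHH1 at 0.13, LEPROTL1 at 0.18 and EEF1A2 at 0.21. For PODXL the nearest was NPNT, which encodes the matrix protein nephronectin, at 0.61, with STMN2 at 0.93 and COL8A2 at 0.94. For LRP2 the nearest were GDF15 at 0.59, INPP5D at 0.86 and SH3TC2 at 0.87, none of which was among the nearest 3 of another of the 9 genes. TMEM255A had UPK3B, ANXA8 at 0.34 and APLP1 at 0.35, and ITGA6 at 0.48 and PKHD1L1 at 0.50 followed CA12 for TMEM151A. After CA12, PKHD1L1 had UPK3B and COX6B2 at 0.44. WT1 and MSLN stayed so close to the pseudocount of 0.5 CPM that their nearest genes only had small differences between groups and are not named. Outside the Mock Pdgfra-low libraries UPK3B, PKHD1L1 and TMEM151A averaged at most 0.665, 0.346 and 0.638 CPM, near or under that pseudocount. Their nearest genes thus mostly reflect the libraries by which the genes were chosen. No weight is put on some of the 9 genes being near each other. The points share their libraries, and the measure is a description.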

How the data were processed

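RNA was sequenced from 8 libraries of sorted cells in 4 groups of 2, grouped by the sample titles. What the authors deposited is raw counts for each gene name, beside the gene's length. FastQC 0.11.8, HISAT2 2.1.0 and the build GRCh38 are named in the submitters' processing notes. GENCODE release 42 and featureCounts 2.0.3 were used for counting, per the file headers, with no strand set and each mate counted. Trimming is not given in the sources used here. Of the sample columns, 0 were left unused.

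The software was R 4.3.3, edgeR 4.0.16 for the tests and limma 3.58.1. Of 39416 genes with any count, 22554 passed filterByExpr. Libraries were scaled by TMM, and 1 robust quasi-likelihood model with a mean per group was fitted over all 8 libraries, leaving 4 residual degrees of freedom. Benjamini-Hochberg adjustment ran over all 22554 genes in each contrast at 0.05. The SE of a log2 fold change is its size over the square root of F, and such a value depends on the prior count where a group is at or near 0. The floor of a group with no count is 6 counts, or 3 pairs. Exact 95% binomial intervals took 2 counts as 1 pair, and intervals and floors cover counting error only. Replicates correlated at Pearson's r of 0.997 to 0.998 across genes and differed beyond sampling noise. The alternatives were DESeq2 1.42.0, its size factors in edgeR, library totals, no filter, only the 4 libraries of a contrast, a replicate block and each library left out. The fit was tested on simulated data.

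The 9 genes and all lists were chosen with earlier results of these data known. All 9 genes are named; of each other list, up to 4 called genes per contrast with the largest change and a mean of at least 1 CPM are named, with defining markers at or near 0. Sequences are RefSeq promoters, of which 6 of the 9 genes have one that could be printed. Some results of the other lists are not reported here.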

Additional observations from a re-analysis of the deposited data

Results flagged for a closer look

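For 16 of 21 genes named from the lists of partners, relatives and other mesothelial markers, the FGF8+10 effect differed between Pdgfra-low and Pdgfra-positive cells in a test of the difference itself (edgeR adjusted p under 0.05). These genes were named for large changes in contrasts of the same libraries, so the count is not comparable with that over all genes. The test was not passed by TMEM255B, CUBN, TBX18, AMER1 and DAB2, with edgeR adjusted p from 0.0706 to 0.342. The differences below are the log2 effect in Pdgfra-low minus that in Pdgfra-positive cells. Among the relatives, CD34 differed by 3.47, LRP8 by 2.45, VLDLR by 0.61 and LRP4 by 0.16, while BNC2 differed by -0.87 and LRP1B by -0.46. Among the other mesothelial and epicardial markers, ALDH1A2 differed by 3.35, SEMA3D by 2.13, KRT18 by 0.96 and KRT8 by 0.74, while TCF21 differed by -0.76 and PDPN by -0.27. Among the partners, MYO6 differed by 0.42, EZR by -0.57, SLC9A3R1 by -0.28 and CITED2 by -0.17. Both effects were rises for ALDH1A2, at 6.70 in Pdgfra-low and 3.35 in Pdgfra-positive cells, and SEMA3D had a rise of 1.19 in Pdgfra-low and a fall of 0.94 in Pdgfra-positive cells (log2 fold change -0.94), whose call was lost without FGF8+10 Pdgfra-positive replicate 1 (edgeR adjusted p = 0.0760) and without Mock Pdgfra-positive replicate 2 (0.0661). For the 9 genes such differences were not tested, because that uses the libraries that chose them.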

How the results depend on the processing

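Of the counts of called genes among the 9 genes and the other mesothelial markers, 161 values under the alternatives were within 1.5 times the reported count and 7 were not. The count of the 9 genes lower in Pdgfra-low than in Pdgfra-positive cells within FGF8+10, which was MSLN alone, was 0 with only the 4 libraries of the contrast, in which MSLN did not pass the filter, and 0 to 1 without each library in turn. The count of other mesothelial markers lower in Pdgfra-low than in Pdgfra-positive cells within Mock was 1 to 2 without each library in turn. The direction of KRT8 with FGF8+10 in Pdgfra-positive cells reversed under library totals alone, at 0.033 (edgeR adjusted p = 0.265), and the cause was not tested. Scaled by library totals alone, the median of all genes shifted by 0.17 in Pdgfra-positive and 0.16 in Pdgfra-low cells, so that 8164 genes rose and 3991 fell with FGF8+10 in Pdgfra-positive cells, against 5811 and 5658 in the reported fit, and 8113 rose and 4672 fell in Pdgfra-low cells, against 6300 and 6256. With the replicate block, 5 of the 9 genes fell with FGF8+10 in Pdgfra-positive cells, since UPK3B had an edgeR adjusted p of 0.0505, and CD34 and TMEM255B lost their calls in Pdgfra-low against Pdgfra-positive cells within Mock (0.0537 and 0.0530). The numbers did not pair the libraries, with correlations of same-numbered deviations from -0.0120 to 0.0296. With 2 libraries per group and levels near the floor, the differences of WT1, MSLN and PKHD1L1 within FGF8+10 rest on few reads.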
